A study of Mus musculus with 6 samples.

Results

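Globin and erythroid transcripts were followed in the forebrain of 3 *Slc13a4*+/- and 3 wild-type mice at postnatal day 20 (P20). The members were 6 of the 35523 genes in the annotated files, taken by their gene symbol: the α-globin genes *Hba-a1* and *Hba-a2*, the β-globin genes *Hbb-bs* and *Hbb-bt*, *Alas2* and *Slc4a1*. All 6 were measured in every mouse, and all 6 had enough counts to be tested. The 4 globins together stood at 2551 to 4069 TPM (transcripts per 1000000 transcripts, scaled by length) a mouse, with the highest and the lowest level both in wild-type mice. The globins and *Alas2* moved up and down together from mouse to mouse. With all 6 mice, none of the 6 members passed the study's threshold between the genotypes, with log2 fold changes of -0.31 to -0.10.

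Haemoglobin of the adult mouse is a tetramer of α- and β-globin chains, each carrying a haem group that binds oxygen. *Alas2* encodes the erythroid 5-aminolevulinate synthase, which makes the first committed step of haem synthesis in red cell precursors, and *Slc4a1* encodes band 3, the anion exchanger and membrane anchor of the red cell. Red cells lose their nucleus as they mature, and young red cells in the circulation still carry globin mRNA. In brain tissue these transcripts are commonly read as a measure of blood in the sample, although globin expression in brain cells has also been described.

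The study asked which genes depend on both alleles of *Slc13a4*, which encodes a sulfate transporter, in the developing forebrain. The mice were on a C57BL/6 background and came from *Slc13a4*+/- males and wild-type females, so that the controls were wild-type littermates with both alleles intact. The whole forebrain was removed after cervical dislocation and frozen, no perfusion step is described, and the libraries were depleted of rRNA with no step named for the removal of globin transcripts. Each value is thus an average over all cells of the tissue and the blood held in it, and fewer red cells cannot be told apart from less RNA per cell. Mice keep the names of their labels: Nas2Del_Het_1024, Nas2Del_Het_1025 and Nas2Del_Het_1027 were *Slc13a4*+/-, and Nas2Del_WT_1016, Nas2Del_WT_1018 and Nas2Del_WT_1026 were wild type. The labels name the allele Nas2Del, and which part of the gene it lacks, and the litter and sex of each mouse, are not stated in the labels or the study's methods.

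The libraries held 60340337 to 80410582 estimated counts. Nas2Del_WT_1026 had the largest total and stood furthest from the other wild-type mice. Its chi-square per gene was 38.22 against Nas2Del_WT_1016 and 32.36 against Nas2Del_WT_1018, where that pair had 7.28 between them. Against Nas2Del_Het_1024, Nas2Del_Het_1025 and Nas2Del_Het_1027 it was 17.1, 21.06 and 14.43. By this measure Nas2Del_WT_1026 was nearer to each *Slc13a4*+/- mouse than to the other wild-type mice, and the cause was not tested. *Slc13a4* itself had 5.86 ± 0.62 CPM (counts per 1000000 counts of the mouse, SD, n = 3) in the *Slc13a4*+/- mice and 9.35 ± 1.10 CPM (SD, n = 3) in the wild-type mice, with groups that did not overlap. By the quasi-likelihood test of edgeR its adjusted p was 0.499. All 10 forebrain neuron markers on the list used here were tested, and their summed level was 4942 to 5349 CPM.

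The 4 globin genes form 2 pairs of near-identical copies. On GRCm38, *Hba-a1* lies on chromosome 11 from 32283511 to 32284465 and *Hba-a2* from 32296489 to 32297298, both on the plus strand. *Hbb-bs* lies on chromosome 7 from 103826534 to 103828096 and *Hbb-bt* from 103812524 to 103813996, both on the minus strand. *Alas2* lies on chromosome X from 150547375 to 150570638 on the plus strand, and *Slc4a1* on chromosome 11 from 102348824 to 102366203 on the minus strand. The coding sequences of *Hba-a1* and *Hba-a2* have 429 bases each and differ at 1 base, written C381T, with the base of *Hba-a1* first and positions counted from 1 at the first base of the start codon. Those of *Hbb-bs* and *Hbb-bt* have 444 bases and differ at 1 base, C417T, with the base of *Hbb-bs* first. The stretches around the α-globin difference, bases 342 to 381 of each coding sequence, are shown because they hold the only base that separates the copies within the coding sequence, which is in capitals:
Hba-a1: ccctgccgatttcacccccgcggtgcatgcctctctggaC
Hba-a2: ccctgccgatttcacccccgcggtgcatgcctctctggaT

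A read of 76 bases, the length used in the study, therefore often matches both copies. The study sequenced reads in pairs, and the shares of single windows given next are not shares of read pairs, which were not computed. Of all windows of 76 bases in the main transcript, 62.0% in *Hba-a1* and 80.8% in *Hba-a2* also occur in the other α-globin gene, and 64.2% in *Hbb-bs* and 56.5% in *Hbb-bt* also occur in the other β-globin gene. In *Alas2* and *Slc4a1* the number is 0. The division of counts within each globin pair thus rests on the model that Salmon uses for shared reads, and values of single globin genes are uncertain to that extent. The annotated start of *Hba-a1* also lies 161 bases upstream of its RefSeq start, against 3 bases for *Hba-a2*. The main transcripts have 699 and 554 bases, and TPM divides by that length. For *Hbb-bt* the annotated start lies 73 bases upstream of its RefSeq start, against 0 for *Hbb-bs*. Their main transcripts have 703 and 628 bases.

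The members also share letters in front of their start sites. The RefSeq promoter table for GRCm38.p6, which covers a short window around each start, held 5 of the 6 members and had no entry for *Slc4a1*. It was searched on both strands for GATAA, which GATA factors bind, for CACCC, which KLF factors bind, for the box named CCAAT, and for ATATAA, a variant of the core promoter box. All 4 globin promoters held all 4 motifs. Of 32851 promoters in the table, 25.4% held GATAA, 57.5% CACCC, 37.4% CCAAT and 9.82% ATATAA, and 0.709% held all of them. *Alas2* held GATAA and CACCC, both on the reverse strand. The *Hba-a1* and *Hba-a2* promoters were identical in 297 of 297 bases once shifted by 3 bases. The stretches in front of the annotated start of *Hba-a2* (chr11:32296372-32296488, plus strand), *Hbb-bs* (chr7:103827929-103828048, minus strand) and *Alas2* (chrX:150547297-150547374, plus strand) are shown because they stand for the α-globin, the β-globin and the haem synthesis members, whose levels moved together across mice, and capitals mark the motifs (TTATC stands for the first of them on the reverse strand):
Hba-a2: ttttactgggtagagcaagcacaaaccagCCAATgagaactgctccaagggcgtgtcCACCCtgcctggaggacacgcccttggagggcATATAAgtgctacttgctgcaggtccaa
Hbb-bs: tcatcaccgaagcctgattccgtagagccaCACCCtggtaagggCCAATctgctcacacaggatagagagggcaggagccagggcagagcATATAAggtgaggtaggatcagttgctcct
Alas2: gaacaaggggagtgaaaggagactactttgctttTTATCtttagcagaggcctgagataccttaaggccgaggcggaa

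These matches describe the letters of the windows and not sites in use. In the globin promoters the ATATAA stood 28 to 31 bases before the RefSeq start and a forward CCAAT 75 to 91 bases before it, while the GATAA copies stood 182 to 209 bases before it, outside the stretches shown. The CACCC copies of *Alas2* stood 30 to 40 bases before its RefSeq start. That is downstream of the annotated start, where the *Alas2* stretch ends, so the stretch does not hold them.

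Per length, the 6 members covered more than 3 orders of magnitude and kept the same order in every mouse. *Hbb-bs*, the more abundant β-globin, had a mean of 1604 TPM and ranked 38 of 35523 genes. *Hba-a2* followed with 958 TPM (rank 86), *Hba-a1* with 493 TPM (rank 274) and *Hbb-bt* with 200 TPM (rank 830). *Alas2* had 15.9 TPM (rank 8617) and *Slc4a1* 1.18 TPM (rank 14365). No neighbours in this order overlapped: *Hbb-bs* ran from 1223 to 2037 TPM over the 6 mice, *Hba-a2* from 779 to 1166, *Hba-a1* from 389 to 608, *Hbb-bt* from 160 to 258, *Alas2* from 12.03 to 20.98 and *Slc4a1* from 0.945 to 1.46. The order of the globin copies carries the limits of shared reads and of annotated length given above.

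The 4 globins together took a small share of each library. They held 0.0746%, 0.0740% and 0.0618% of the gene counts in Nas2Del_Het_1024, Nas2Del_Het_1025 and Nas2Del_Het_1027, and 0.0813%, 0.0939% and 0.0562% in Nas2Del_WT_1016, Nas2Del_WT_1018 and Nas2Del_WT_1026. The highest and the lowest share, which differed 1.67-fold, were both in wild-type mice, and the *Slc13a4*+/- values lay between them. The means were 0.0701% ± 0.0072 (SD, n = 3) in *Slc13a4*+/- and 0.0771% ± 0.0192 (SD, n = 3) in wild type, a difference within the spread between mice (exact permutation test, two-sided p = 0.5, where the smallest p that 3 mice against 3 allow is 0.1). The summed TPM of the 4 globins was 3301, 3283 and 2781 in the *Slc13a4*+/- mice and 3541, 4069 and 2551 in the wild-type mice, with the same order of mice. In counts the sums were 44877 to 57880 a mouse, so counting error is small beside the spread between mice.

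*Hbb-bs* had 365, 374 and 301 CPM in Nas2Del_Het_1024, Nas2Del_Het_1025 and Nas2Del_Het_1027, and 412, 472 and 280 CPM in Nas2Del_WT_1016, Nas2Del_WT_1018 and Nas2Del_WT_1026. The wild-type mice held the highest and the lowest value, and the groups overlapped. The log2 fold change of *Slc13a4*+/- against wild type was -0.16 (SE 0.17, 95% interval -0.55 to 0.22; edgeR quasi-likelihood test, adjusted p = 0.787).

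*Hbb-bt*, the second adult β-globin gene of this haplotype, had 53.3, 53.9 and 43.6 CPM in the *Slc13a4*+/- mice and 55.9, 69.1 and 42.3 CPM in the wild-type mice, in the same order of mice. Nas2Del_WT_1018 was again highest and Nas2Del_WT_1026 lowest. The log2 fold change was -0.15 (SE 0.16, 95% interval -0.51 to 0.21; edgeR adjusted p = 0.797).

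The α-globin genes followed the same pattern. *Hba-a1* had 130, 131 and 109 CPM in the *Slc13a4*+/- mice and 145, 162 and 102 CPM in the wild-type mice, with a log2 fold change of -0.15 (SE 0.15, 95% interval -0.49 to 0.20; edgeR adjusted p = 0.786). *Hba-a2* had 197, 178 and 162 CPM against 196, 228 and 151 CPM, with a log2 fold change of -0.10 (SE 0.14, 95% interval -0.41 to 0.21; edgeR adjusted p = 0.841). In both genes all 3 *Slc13a4*+/- values lay between those of Nas2Del_WT_1018 and Nas2Del_WT_1026. With the copies of each pair summed to 1 feature, which does not depend on the division of shared reads, the log2 fold change was -0.12 (SE 0.14) for α-globin and -0.16 (SE 0.17) for β-globin, with edgeR adjusted p of 0.82 and 0.787.

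*Alas2*, the haem synthesis member, had 12.9, 13.9 and 10.6 CPM in Nas2Del_Het_1024, Nas2Del_Het_1025 and Nas2Del_Het_1027, and 17.1, 18.8 and 10.6 CPM in Nas2Del_WT_1016, Nas2Del_WT_1018 and Nas2Del_WT_1026. Nas2Del_WT_1016 and Nas2Del_WT_1018 were above all 3 *Slc13a4*+/- mice, and Nas2Del_WT_1026 was level with Nas2Del_Het_1027 at the bottom. The log2 fold change was -0.31 (SE 0.19, 95% interval -0.75 to 0.13; edgeR adjusted p = 0.647), the lowest of the 6. *Alas2* is X-linked, and the Y-linked gene *Ddx3y* was seen at 105 CPM in Nas2Del_WT_1016 and at most 0.033 CPM in the other 5.

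*Slc4a1* rested on 147 to 202 counts a mouse. It had 2.09, 2.92 and 1.97 CPM in the *Slc13a4*+/- mice and 2.78, 3.13 and 2.14 CPM in the wild-type mice. Here Nas2Del_Het_1025 stood with the high wild-type mice, and the groups overlapped. The log2 fold change was -0.20 (SE 0.19, 95% interval -0.64 to 0.23; edgeR adjusted p = 0.763). It was -0.40 without Nas2Del_Het_1025 and -0.08 without Nas2Del_WT_1018, the ends of its range without each mouse in turn, and was called in none of these settings.

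**Figure D1:**
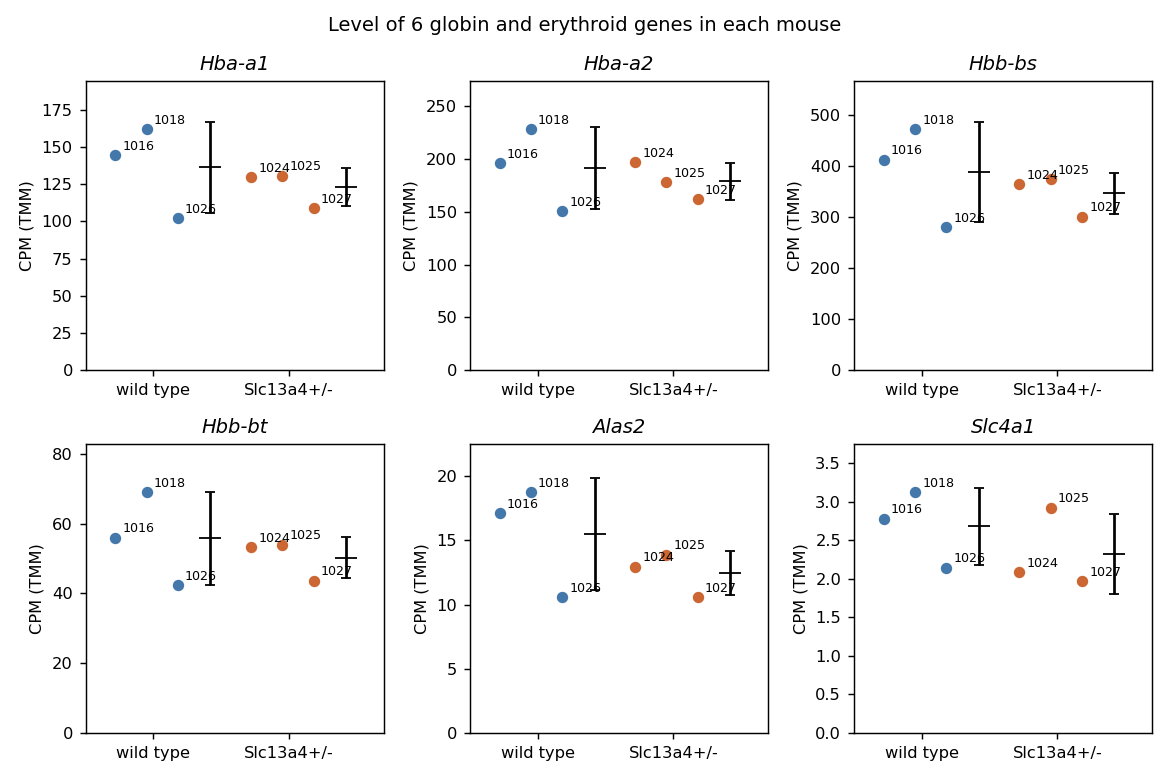
CPM after TMM normalization (y axis, from 0, a separate scale for each gene) of the 6 genes in each mouse; points stand for single mice, marked with the last digits of their label, and the horizontal mark with bars is the mean ± SD (n = 3 per genotype). Nas2Del_WT_1018 is highest for all 6 genes, and the genotypes overlap for each gene.

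By edgeR's test, 0 of the 6 members were called at an adjusted p under 0.1, the threshold of the study, where 0.00585% of the 17096 tested genes were called. At an unadjusted p under 0.05 the count was 0 of 6, against 9.15% of tested genes, and 4.17% that were lower in *Slc13a4*+/-. The DESeq2 Wald test called 0 of 6, against 0.311% of its genes, and with length offsets 0 of 6, against 0.487%. Limma-voom also called 0 of 6, against 0.00585%. With so few calls over all genes, 0 of 6 is close to what these shares give. In 0 of 6 members did the genotypes separate without overlap, against 15.0% of tested genes. All 6 log2 fold changes were below 0, as were 52.2% of those of all tested genes. The members co-varied over the same 6 mice, so their signs are not independent of each other. The median over the members was -0.16, beside -0.004 over all tested genes. The 95% intervals of the globins reached from -0.55 to 0.22 at their widest.

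Single mice decided these values. Without Nas2Del_WT_1026, edgeR gave *Alas2* a log2 fold change of -0.53 (SE 0.10) and an adjusted p of 0.0916, so that 1 of 6 members was called, where 1.29% of the genes tested in that setting were called. The DESeq2 Wald test with length offsets, run without single mice after the data were seen, then called 3 of the 5 members to which it gave an adjusted p (*Slc4a1* got none), *Alas2* (adjusted p = 0.00603), *Hba-a1* (0.00747) and *Hbb-bt* (0.0662), where it called 6.54% of its genes, with 2.68% called as lower. All 3 of these members had lower levels in *Slc13a4*+/-. Without Nas2Del_WT_1018, by contrast, edgeR's log2 fold change was 0.05 for *Hba-a2*, 0.00 for *Hbb-bs*, 0.03 for *Hbb-bt* and -0.15 for *Alas2*. Of the tested genes, 18.6% had all 3 *Slc13a4*+/- values below those of Nas2Del_WT_1016 and Nas2Del_WT_1018. For the globins and *Alas2* the wild-type mice thus spanned the *Slc13a4*+/- mice from both sides, and the direction of the difference in *Hba-a2*, *Hbb-bs* and *Hbb-bt* depended on which of them were kept.

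**Figure D2:**
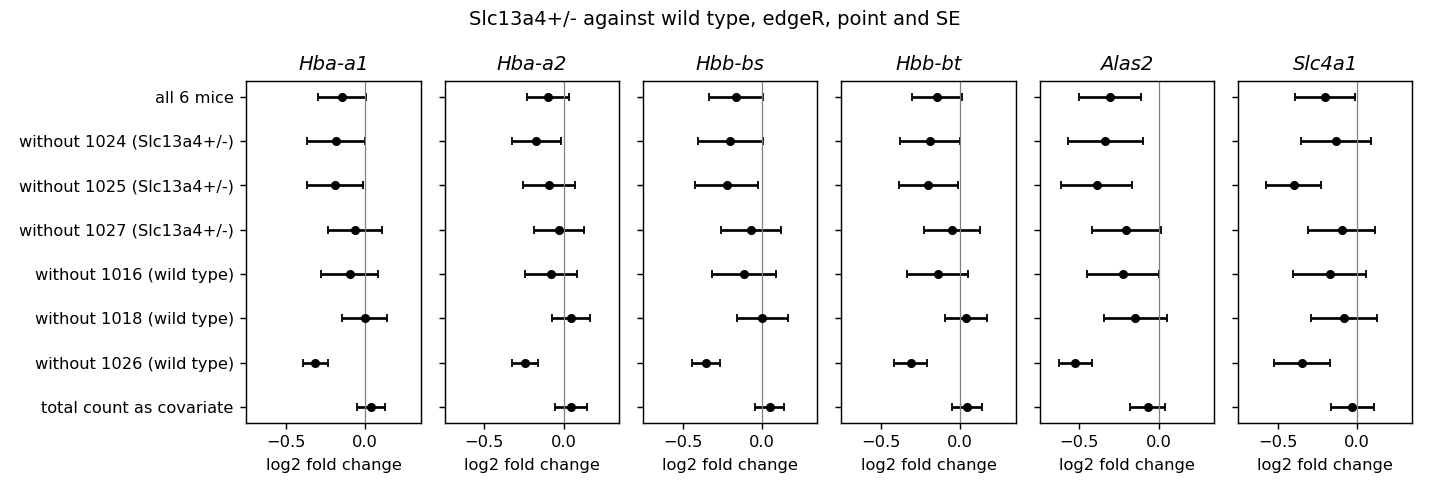
Log2 fold change of *Slc13a4*+/- against wild type (x axis) for each gene from edgeR's quasi-likelihood test with all 6 mice, without each mouse in turn, and with the log2 total count of the library as a covariate (y axis); points are estimates and bars are SE. Estimates move away from 0 without Nas2Del_WT_1026 and lie close to 0 for the globins without Nas2Del_WT_1018 or with the covariate.

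The globin level also followed the size of the library. Over the 6 mice, the mean log2 CPM of the 4 globins had r = -0.868 with the log2 total count (exact permutation p = 0.025, adjusted over 3 relations 0.0333) and Spearman's rho of -0.829 (exact permutation p = 0.0583, adjusted 0.0874). Without the 2 mice farthest from the median, Nas2Del_WT_1018 and Nas2Del_WT_1026, r was -0.509, so the relation rests on them. *Alas2* had r = -0.907 (exact permutation p = 0.0153, adjusted 0.0333; -0.634 without the 2 farthest mice) and a rho of -0.943 (exact permutation p = 0.0167, adjusted 0.0501). *Slc4a1* had r = -0.892 (exact permutation p = 0.0333, adjusted 0.0333; -0.94 without the 2 farthest mice) and a rho of -0.714 (exact permutation p = 0.136). Of the tested genes, 1.38% had an r as low as that of the globins or lower. With the log2 total count as a covariate in edgeR, a setting chosen after seeing the data, the log2 fold changes were 0.04 to 0.05 for the globins, -0.07 for *Alas2* and -0.03 for *Slc4a1*, and 0 of 6 were called, against 0.0468% of tested genes. The part of library size in the differences between mice was not tested apart from this.

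**Figure D3:**
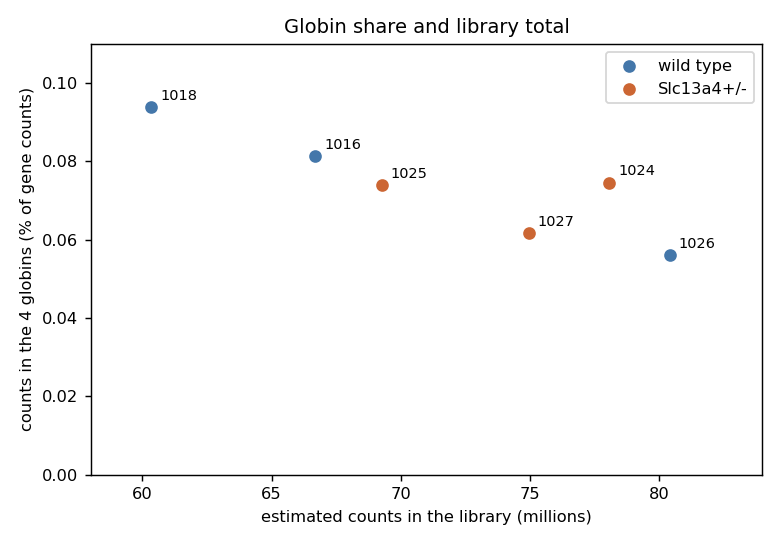
Share of gene counts in the 4 globins (y axis, percent, from 0) against the estimated counts in the library (x axis, in units of 1000000; the axis does not start at 0); points are mice. Nas2Del_WT_1018 has the smallest library and the highest share (0.0939%), and Nas2Del_WT_1026 the largest library and the lowest share (0.0562%).

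Across mice the members moved as a group. Nas2Del_WT_1018 was highest for all 6, and ordered by their mean deviation the mice ran Nas2Del_WT_1018, Nas2Del_WT_1016, Nas2Del_Het_1025, Nas2Del_Het_1024, Nas2Del_Het_1027 and Nas2Del_WT_1026. *Hba-a1*, *Hbb-bs*, *Hbb-bt* and *Alas2* had the same order of mice, with a Spearman's rho of 1.0 for each of their pairs (exact permutation p = 0.00278, adjusted over the 15 pairs 0.00695). Over the 15 pairs of members Pearson's r was 0.661 to 0.999, with a median of 0.96, and 13 pairs had an adjusted p under 0.05 by the exact permutation test, against 6 pairs by Spearman's rho. The highest r, 0.999, was between *Hba-a1* and *Hbb-bs*, which lie on different chromosomes and share no 76-base window (exact permutation p = 0.0014, the smallest that 6 mice allow). The α-globin copies had r = 0.965, and in pairs that share reads the agreement between copies is not independent.

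*Alas2* moved with the globins and shares no 76-base window with them. Its r was 0.978 with *Hba-a1*, 0.977 with *Hbb-bs*, 0.949 with *Hbb-bt* and 0.905 with *Hba-a2* (exact permutation p = 0.0014, 0.0014, 0.0014 and 0.0167). *Slc4a1*, with the fewest counts, was the loosest member, with r of 0.661 with *Hba-a2* (exact permutation p = 0.158) to 0.874 with *Alas2* (exact permutation p = 0.0306). Without the 2 mice farthest from the median r was 0.336 to 0.998 over the 15 pairs. The number of pairs with an adjusted p under 0.05 was 6 without Nas2Del_Het_1027, without Nas2Del_WT_1018 or without Nas2Del_WT_1026, where r was at least 0.571, 0.428 and 0.612 over the 5 mice left. After each genotype was centred on its own mean, r over the 6 mice together was 0.644 to 0.999. The co-variation thus remained with the difference between the genotype means removed. The globins and *Alas2* spread more in wild type, with an SD of 98.4 against 40.0 CPM for *Hbb-bs*, while *Slc4a1* had 0.50 against 0.52 CPM. The co-variation within each genotype alone was not tested. The members are also scaled by the same library totals, which the points share.

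**Figure D4:**
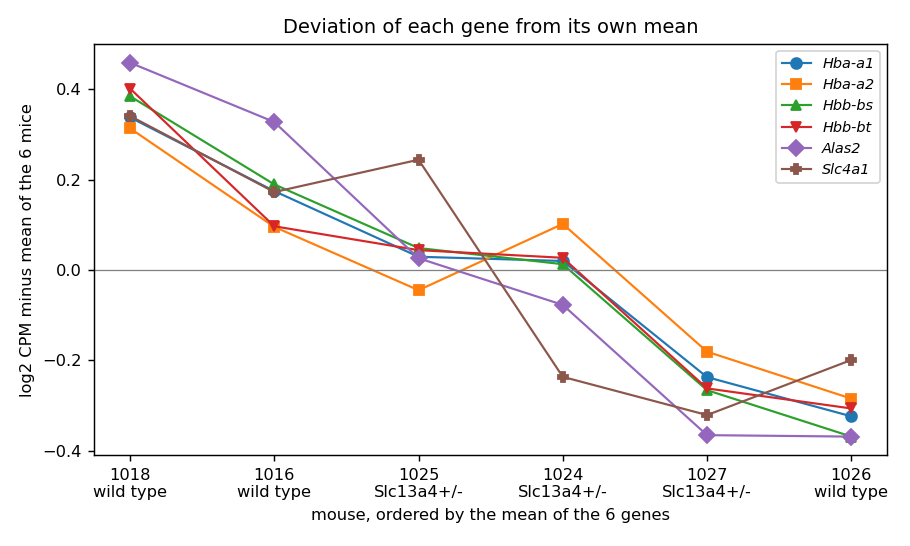
Log2 CPM of each gene minus its own mean over the 6 mice (y axis) in each mouse (x axis, ordered by the mean of the 6 genes); each line is 1 gene. *Hba-a1*, *Hbb-bs*, *Hbb-bt* and *Alas2* slope down from left to right, with wild-type mice at both ends, *Hba-a2* is higher in Nas2Del_Het_1024 than in Nas2Del_Het_1025, and *Slc4a1* departs from them most in Nas2Del_Het_1025 and Nas2Del_Het_1024.

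The spread of the members between mice was wide for this tissue. The highest mouse exceeded the lowest 1.51-fold for *Hba-a2*, 1.58-fold for *Hba-a1*, 1.63-fold for *Hbb-bt* and 1.69-fold for *Hbb-bs*, and 1.78-fold for *Alas2* and 1.59-fold for *Slc4a1*. The SD of log2 CPM over the 6 mice was 0.22 to 0.34, and it exceeded that of 81.1% of tested genes for *Hba-a2* and of 90.6% for *Alas2*, with the other members between. The ratios of α- to β-globin, of the copies within each pair, of the globins to *Alas2* and of *Alas2* to *Slc4a1* varied less, with a highest-to-lowest range of 1.10- to 1.31-fold in TPM.

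The balance of α- to β-globin was 0.843, 0.772 and 0.846 by summed TPM in Nas2Del_Het_1024, Nas2Del_Het_1025 and Nas2Del_Het_1027, and 0.777, 0.773 and 0.845 in Nas2Del_WT_1016, Nas2Del_WT_1018 and Nas2Del_WT_1026. Each genotype held values near both ends of this 1.10-fold range. The difference of the log2 ratio was 0.04 (exact permutation test, two-sided p = 0.9, smallest possible 0.1). Within the pairs, *Hba-a2* exceeded *Hba-a1* 1.85- to 2.06-fold in TPM and *Hbb-bs* exceeded *Hbb-bt* 7.67- to 8.54-fold. Both ratios are subject to the division of shared reads and to the annotated lengths by which TPM divides.

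The 4 globins exceeded *Alas2* 222-, 204- and 228-fold in TPM in the *Slc13a4*+/- mice and 185-, 194- and 212-fold in the wild-type mice. The ranges overlapped, since Nas2Del_Het_1025 lay below Nas2Del_WT_1026 (exact permutation test, two-sided p = 0.2). Against *Alas1*, the synthase used by most other cells, *Alas2* stood at 0.092 to 0.169 of its TPM. *Alas1* itself had 58.2 to 61.7 CPM over the mice, a range far narrower than that of *Alas2*, and a log2 fold change of 0.03.

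Nearly all member counts fell on spliced protein-coding transcripts. Annotated retained-intron transcripts of the members held 0 to 19.2 counts a mouse, at most 0.0420% of member counts. For *Alas2* the counts fell on 2 coding transcripts. *Alas2*-201 held 48.0%, 57.1% and 67.3% of the *Alas2* TPM in the *Slc13a4*+/- mice and 68.8%, 67.6% and 58.4% in the wild-type mice, with overlapping groups (exact permutation test, two-sided p = 0.2).

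The other genes of the globin family were low or varied less between mice than the members. The embryonic globins *Hba-x*, *Hbb-y* and *Hbb-bh1* had at most 4 counts in any mouse. *Hbb-bh2* had 0 counts in every mouse, which allows up to 3 counts or 0.0375 to 0.05 CPM a mouse, for counting error only. *Hbq1b*, which lies between the α-globin genes, had 8 to 18 counts and a log2 fold change of -0.74 (SE 0.31; edgeR adjusted p = 0.536), with genotypes that did not overlap. *Hbq1a*, on 24 to 39 counts, had -0.36 (SE 0.23; edgeR adjusted p = 0.645). Of the 9 other globins, 4 were tested and 0 were called, with a median log2 fold change of -0.24. *Cygb*, cytoglobin, which fibroblast-like and some neural cells use, had 39.5 ± 1.36 CPM in *Slc13a4*+/- and 42.8 ± 1.89 CPM in wild type (SD, n = 3), a log2 fold change of -0.11 (SE 0.05; edgeR adjusted p = 0.53). *Ngb*, neuroglobin of neurons, had 6.36 to 8.11 CPM and a log2 fold change of -0.08 (SE 0.11; edgeR adjusted p = 0.843).

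Of 12 other genes of haem synthesis and mitochondrial transport, 11 were tested and 0 called. Their log2 fold changes were above 0 for 5 and below 0 for 6, with a median of -0.03 beside -0.004 over all tested genes. *Slc25a38*, the mitochondrial glycine carrier of haem synthesis, had -0.16 (SE 0.05; edgeR adjusted p = 0.499). *Slc25a37*, mitoferrin, had 0.14 (SE 0.06; edgeR adjusted p = 0.565). *Fech*, which inserts the iron, had 60.5 to 74.6 CPM. Their summed level was 338 to 356 CPM over the mice, so this pathway as a whole, used by every cell, varied little beside *Alas2*.

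Many genes of red cell precursors and of the red cell membrane were low. Of 20 red cell membrane and enzyme genes 19 were in the files, and 9 of them had under 1 CPM in every mouse, among them *Epb42*, *Kel*, *Rhag*, *Rhd*, *Car1*, *Hemgn* and *Trim58*. *Epb42*, a protein of the membrane skeleton, had 25 to 36 counts a mouse and *Rhag*, the Rh-associated glycoprotein, 4 to 11 counts. The other 10, which include genes that brain cells also use, had means of 0.427 to 406 TPM. Among 11 genes of erythroid transcription and signalling, *Gata1*, *Klf1*, *Nfe2* and *Gfi1b* were under 1 CPM in every mouse. *Gata1*, the master factor of the lineage, had 1 to 4 counts a mouse, and *Klf1*, an activator of β-globin, 3 to 18 counts. The other 7 had means of 1.86 to 104 TPM. In TPM, *Gata1* had at most 0.168 and *Klf1* at most 0.349, where *Hbb-bs* had at least 1223.

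**Figure D5:**
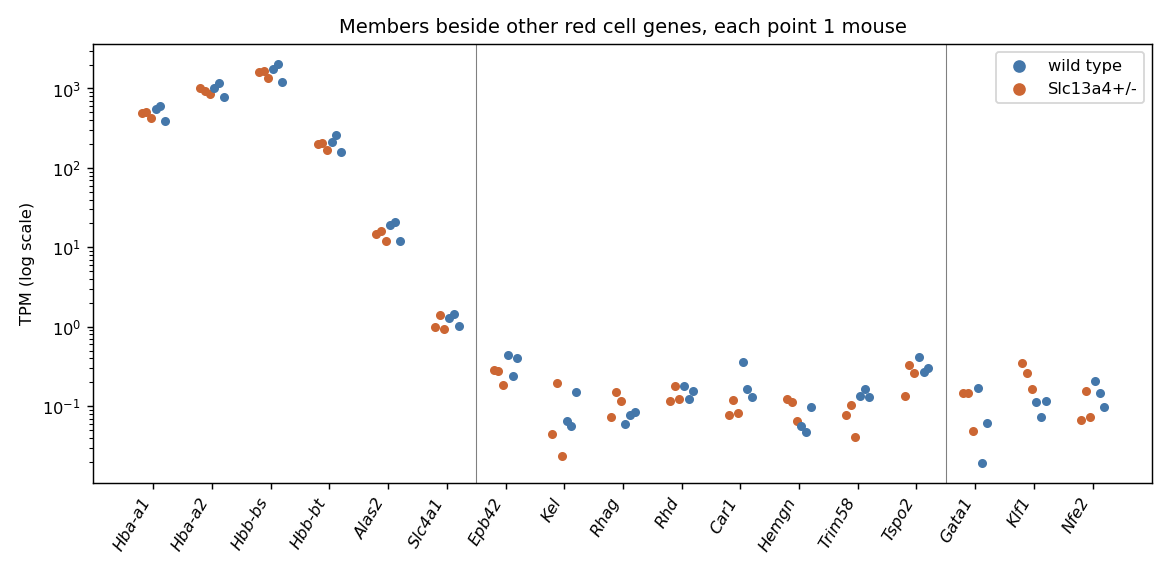
TPM (y axis, log scale) of the 6 members, of 8 other red cell genes and of 3 erythroid factors (x axis, separated by vertical lines); each point is 1 mouse, coloured by genotype. The globins lie between 160 and 2037 TPM and *Alas2* between 12.03 and 20.98, while the genes right of the first line lie below 1 TPM; these were picked because they had under 1 CPM in every mouse, so their place below the members follows from that choice.

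Of the red cell membrane and enzyme genes 13 were tested, with 0 called, 4 log2 fold changes above and 9 below 0, and a median of -0.07. *Car2*, a carbonic anhydrase that glia also use, had 101 ± 5.42 CPM in *Slc13a4*+/- and 113 ± 5.60 CPM in wild type (SD, n = 3), a log2 fold change of -0.16 (SE 0.05; edgeR adjusted p = 0.499). *Ermap*, an erythroid membrane protein, had 0.51 (SE 0.20; edgeR adjusted p = 0.528) and 43 to 80 counts a mouse. *Tal1*, a factor of blood and endothelial cells, had -0.31 (SE 0.12; edgeR adjusted p = 0.527), and *Epor*, the erythropoietin receptor, had 0.20 (SE 0.10; edgeR adjusted p = 0.586). Of the 7 transcription and signalling genes tested, 3 were above and 4 below 0, with a median of -0.02.

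Genes that clear free haemoglobin and haem gave no call either. Of 12 genes 11 were tested, 0 were called, 1 was above and 10 below 0, and the median log2 fold change was -0.06. Haptoglobin (*Hp*, 6 to 11 counts) and haemopexin (*Hpx*, 8 to 21 counts), which bind haemoglobin and haem in plasma, were under 1 CPM in every mouse. *Cd163*, the haptoglobin-haemoglobin receptor of macrophages, had 2.55 to 3.21 CPM, and *Hmox1*, haem oxygenase 1, 2.99 to 3.46 CPM. The log2 fold change of *Hmox1* was -0.03.

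Markers of other blood cells were mostly low and gave no call. Under 1 CPM in every mouse were 7 of 12 platelet, 10 of 12 neutrophil, 9 of 13 lymphocyte and 4 of 6 monocyte genes, and 10, 8, 8 and 5 genes of these lists had enough counts to be tested, with 0 called by edgeR. The median log2 fold change was -0.03 for the platelet, 0.135 for the neutrophil, 0.16 for the lymphocyte and -0.01 for the monocyte list. The summed level of the neutrophil list was 9.48 to 11.98 CPM in *Slc13a4*+/- and 8.37 to 10.9 CPM in wild type. That of the platelet list was 10.3 to 10.9 CPM and 9.64 to 10.4 CPM. Single genes made up much of each sum, with 4.81 to 7.84 CPM a mouse for *Cxcr2* (neutrophil list) and 4.51 to 5.82 CPM for *Itgb3* (platelet list). *Pf4*, platelet factor 4, which some macrophages also make, had 0.566, 0.564 and 0.548 CPM in Nas2Del_Het_1024, Nas2Del_Het_1025 and Nas2Del_Het_1027, and 0.977, 1.03 and 0.526 CPM in Nas2Del_WT_1016, Nas2Del_WT_1018 and Nas2Del_WT_1026. Like *Alas2*, it was highest in Nas2Del_WT_1016 and Nas2Del_WT_1018 and lowest in Nas2Del_WT_1026, on 39 to 65 counts, and its r with the globins over the 6 mice was 0.832.

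Markers of the vessels gave no call. The 14 endothelial markers summed to 421 to 450 CPM in *Slc13a4*+/- and 444 to 472 CPM in wild type, with the highest sum in Nas2Del_WT_1026, where the globins were lowest. All 14 were tested, 0 were called, 11 were below 0 and the median log2 fold change was -0.09. *Flt1*, a VEGF receptor, had -0.19 (SE 0.05; edgeR adjusted p = 0.499), and *Cldn5*, the tight junction claudin of brain endothelium, had -0.22 (SE 0.06; edgeR adjusted p = 0.499). The 9 pericyte and smooth muscle markers had a median of -0.16, and the 13 choroid plexus markers, of which 12 were below 0, had a median of -0.22. None of either list was called by edgeR, nor of the 10 meningeal fibroblast markers, whose median was -0.005.

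Markers of the brain's own cells also shifted between the mice with high and low globin. The median r with the mean globin level was -0.823 over the 10 forebrain neuron markers and 0.323 over the 10 glial markers, beside 0.02 over all tested genes. Between the genotypes their median log2 fold changes were -0.004 and -0.15, with 0 of 20 called by edgeR. *Slc17a7*, a vesicular glutamate transporter, ran from 801 CPM in Nas2Del_WT_1018 to 918 CPM in Nas2Del_WT_1026, opposite to the globins, and *Syt1*, a synaptic vesicle calcium sensor, from 1528 to 1738 CPM in the same mice. These 6 points share libraries and totals with the globin values, and the part of tissue composition in the globin differences was not tested.

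Outside the members, 510 tested genes had a mean of at least 1 CPM and an SD of log2 CPM of at least 0.3. The r of *Alas2* with the mean globin level (0.962, n = 6 mice) was above that of all of them. *Slc4a1*, whose SD was just under that limit, had 0.796, and 37 of the 510 had an r at least as high. The 10 genes outside the members with the highest r included *Gm5483* (0.932), *Gm10718* (0.886), *Crb1* (0.883), *Olfr2* (0.883), *Gm10715* (0.88), *Gm10717* (0.879), *Gm10800* (0.879), *Gm10719* (0.877) and *Gm10720* (0.876). *Crb1*, a polarity protein, had 2.28 to 3.81 CPM. The 6 predicted genes from *Gm10715* to *Gm10800* behaved unlike the members in size. *Gm10800* had 482, 894 and 304 CPM in Nas2Del_Het_1024, Nas2Del_Het_1025 and Nas2Del_Het_1027, and 1564, 1544 and 44.6 CPM in Nas2Del_WT_1016, Nas2Del_WT_1018 and Nas2Del_WT_1026, a 35.1-fold range where the globins spanned at most 1.69-fold. The other 5 spanned 27.4- to 35.3-fold. Transcripts of all 6 hold 76-base windows found in other genes, some of them among the 6 and some outside. The share of such windows was 7.18% in *Gm10800* and 21.6% to 80.1% in transcripts of the other 5. To that extent their counts are not independent of each other, which for *Gm10800* is a small part.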

How the data were processed

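RNA was sequenced from the forebrain of 3 *Slc13a4*+/- and 3 wild-type mice, grouped by the genotype in the labels. The authors quantified the reads with Salmon (v1.2.0) and deposited, for each mouse and transcript, expected counts (not always whole) with TPM (which sum to 1000000 a mouse) and effective lengths. Its index was of an annotation and build not given in the sources used here. Of 117135 transcripts, 115973 were matched to GENCODE M21 genes of GRCm38 by identifier, while 1162 (0.620% to 0.645% of counts) were dropped. Counts were summed per gene and rounded. No 2 libraries agreed within sampling noise (chi-square per gene at least 6.32).

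Genes were tested with the edgeR quasi-likelihood test (version 4.0.16 in R 4.3.3, TMM, default filter on low counts, no covariate) over 17096 genes, with Benjamini-Hochberg adjustment over all of them and a threshold of 0.1, the study's. CPM are scaled by TMM, and log2 CPM used a prior count of 2. DESeq2 1.42.0, which the study used, and limma 3.58.1 were alternatives. EdgeR, DESeq2 and limma-voom were each run on simulated counts at the same threshold. In the simulation each gene varied independently of the others, with no shift between mice shared by many genes. The numbers recovered therefore do not tell how many true changes the tests would find in these mice. Of genes changed 1.2-fold, edgeR recovered 23 of 67, DESeq2 28 and limma-voom 23. Of genes changed 2-fold they recovered 58, 58 and 59 of 66. False calls were 29, 52 and 30. The fits with length offsets, with a covariate or without a mouse were not simulated. TPM were used to compare levels between genes. Shares, ratios and correlations over mice were tested by exact permutation. The study's controls were littermates, but no label pairs the mice. The members and the 16 gene lists were chosen with earlier results of these data known. Genes named in the text are the members, *Slc13a4*, genes of a list among the 4 tested with the smallest p or under 1 CPM in every mouse, and the 10 genes most like the globins, of which some are not reported here. *Alas1*, *Fech*, *Cd163*, *Hmox1*, *Cxcr2* and *Ddx3y* were named after their values were seen. Sequences were read from the GENCODE transcripts and the RefSeq promoter table. Tables were joined and plots drawn in Python 3.11.15.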

Additional observations from a re-analysis of the deposited data

How the results depend on the processing

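Of 172 values recomputed under other settings, 153 kept their direction and their side of the threshold, or stayed within the spread allowed for a count. The number of members called was 0 under every other tool, normalization and filter tried with all 6 mice. It ran from 0 to 1 in edgeR without each mouse in turn, and from 0 to 3 in the DESeq2 Wald test with length offsets, a setting added after the data were seen, with the highest value in both without Nas2Del_WT_1026. Without each mouse in turn, edgeR's log2 fold change ran from -0.24 to 0.0455 for *Hba-a2*, from -0.35 to 0.001 for *Hbb-bs* and from -0.31 to 0.0343 for *Hbb-bt*, above 0 only without Nas2Del_WT_1018. It ran from -0.32 to -0.0043 for *Hba-a1*, from -0.53 to -0.15 for *Alas2* and from -0.40 to -0.08 for *Slc4a1*. The DESeq2 Wald test with length offsets without Nas2Del_WT_1018 gave 0.0385 for *Hba-a2* and 0.0273 for *Hbb-bt*. With the log2 total count as a covariate, also added after the data were seen, edgeR gave 0.0352 for *Hba-a1*, 0.0479 for *Hba-a2*, 0.0487 for *Hbb-bs* and 0.0407 for *Hbb-bt*. The difference in the globin share of counts ran from -0.0175 to 0.00141 percentage points, above 0 without Nas2Del_WT_1018. The difference in the log2 α- to β-globin ratio ran from 0.02 to 0.08. The pairs of members with an adjusted p under 0.05 were 13 with all mice and 6 to 11 without each mouse in turn, 6 without Nas2Del_Het_1027, Nas2Del_WT_1018 or Nas2Del_WT_1026. The cause of these changes was not tested. With every gene of at least 1 count tested, edgeR called 147 genes in all against 1, and with length offsets 0. DESeq2 called 55, or 86 with length offsets, and edgeR called 223 without Nas2Del_WT_1026.

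No paired analysis was possible because the mice of the 2 genotypes share no replicate number and no label gives their litter. *Slc4a1* and the genes near the floor rest on few counts. Shared reads limit the division of counts within each globin pair.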
